A study of Mus musculus with 16 samples.

Results

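The genes described here encode the receptors through which neurons detect glutamate, GABA, glycine, acetylcholine, dopamine, serotonin and noradrenaline. They were chosen by name, as the probe sets whose single gene symbol began with Gria, Grik, Grin1, Grin2, Grm, Gabr, Gabbr, Glra, Glrb, Chrn, Chrm, Drd, Htr or Adra. The rule uses no measured value, but it was chosen with earlier results of these data known. The rule found 54 genes on 67 probe sets, of 8251 named genes on the array. Of these, 3 genes (Htra1, Htra2 and Htra3) encode HtrA serine proteases, which share only the first letters of their symbols with serotonin receptors, and they are kept apart below. That left 51 receptor genes, each represented by the probe set with the highest mean intensity over the 16 arrays, and 12 further probe sets of 8 of these genes served as a check.

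Total RNA from mouse retina and mouse cortex was labelled with biotin and hybridised to Affymetrix oligonucleotide arrays at 2 sites, the first site and a second one that the labels name site 2. The groups were retina at the first site (5 arrays), cortex at the first site (5 arrays), retina at site 2 (3 arrays) and cortex at site 2 (3 arrays). The retina RNA came from adult C57/B6 mice, pooled over 350 animals according to the first-site descriptions. The cortex RNA came from mice of postnatal day 1, pooled over 19 animals, whose strain is C57/B6 in those descriptions and Swiss-Webster in the design text. The site 2 labels give no pool details beyond the tissue, and no genetic change or treatment is named for any group. The design text describes the arrays of a tissue as aliquots of 1 pool of RNA, so every p-value below measures only the technical spread between arrays, and none measures the spread between animals. Retina and cortex differed in organ, in age and perhaps in strain, and these cannot be told apart.

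Most of these receptors are built from several subunits, and the subunits that a cell transcribes set how its receptors open, what they let through and which drugs bind them. AMPA, kainate and NMDA receptors are glutamate-gated cation channels, GABA-A, rho and glycine receptors are chloride channels, nicotinic and Htr3 receptors are cation channels, and the remaining classes act through G proteins. In the retina, photoreceptors and bipolar cells release glutamate, amacrine and horizontal cells release GABA or glycine, and a sparse set of amacrine cells releases dopamine. In the newborn cortex, synapses are only beginning to form and the subunit make-up of several receptors is still changing.

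Values are intensities scaled so that the median probe set of each array is 100. Differences are retina over cortex on the log2(scaled intensity + 16) scale with their standard error (SE). A gene is called higher or lower where limma's adjusted p, over all 12422 probe sets tested, was under 0.05. Because 16 was added before the logarithm, differences of dim probe sets are understated. As a measure of background, 13 control probe sets without added target were read on each array, and the highest of them lay between 12.6 and 37.0 scaled units. Where every array of the dimmer tissue was at or under that level, the difference is given as "at least" a fold, and with no size where that bound is under 1. Levels of different probe sets are not compared, since probe sets differ in brightness for the same RNA.

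The tissue labels were checked with marker lists. All 9 measured rod markers and all 4 cone markers were higher in retina at both sites, and all 6 measured markers of cortical projection neurons were lower in retina at both sites. Of 7 neural progenitor markers, 4 were lower and 2 were higher in retina at both sites. At both sites 5 of 7 pigment epithelium markers and 4 of 7 lens markers were also higher in retina. Whether the retina RNA held other eye tissue was not tested. The rod list summed to between 48309 to 56221 scaled units on the retina arrays and 94.2 to 133 on the cortex arrays of the first site. The second cortex array of site 2 stood apart from the others, with a deposited median of 45.65 and a mean correlation with the other cortex arrays of that site of 0.956, against 0.973 to 0.991 for the arrays of the series other than it. Counts at site 2 are therefore also given without it, for all receptor genes and for the classes whose count changed. Partner and marker counts use all arrays.

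At the first site, 11 of the 51 receptor genes were higher and 22 were lower in retina than in cortex, and 18 passed the test in neither direction. The 33 called genes make up 64.7% of them, against 47.9% of all probe sets tested. The genes higher in retina were the rho GABA subunits Gabrr1 and Gabrr2, the delta GABA-A subunit Gabrd, the dopamine receptors Drd4 and Drd2, the nicotinic subunits Chrna6 and Chrnb1, the metabotropic glutamate receptor Grm8, both glycine receptor subunits and the serotonin receptor Htr2b. The genes lower in retina included 6 GABA-A, 5 serotonin, 3 AMPA and 3 kainate receptor genes, and Gria2 and Gabrb1 had the widest differences. By direction, 22.3% of all probe sets were called higher and 25.6% lower, so the share of receptor genes called higher (21.6%) was close to that background and the share called lower (43.1%) stood above it. That background counts every probe set, whereas each receptor gene counts by its brightest one. Among the 22 lower genes, Htr1f and Htr2c were at or under the controls on every array. Chrne is also among them, and its probe sets disagreed, as described below. The median difference over the receptor genes was -0.20, against -0.02 over all probe sets. Among the called genes, 8 of the higher and 7 of the lower differed by at least 2-fold on the scale with 16 added. On 11 receptor genes every retina array lay above every cortex array, and on 16 every retina array lay below, so the tissues did not overlap on 27 genes (52.9%), against 38.8% of all probe sets.

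At site 2, 10 receptor genes were higher and 11 were lower, against 16.7% and 15.8% of all probe sets. The 21 called genes were 41.2% of the receptor genes, against 32.4% of all probe sets called in either direction. Without scaling of the arrays these counts were 5 and 3. Without the second cortex array of that site they were 10 and 20, and without any other single array of the site 10 genes were higher and 6 or 7 lower. The median difference over the receptor genes was -0.29 at site 2, against -0.03 over all probe sets. The arrays did not overlap on 10 receptor genes with retina above and on 19 with retina below, together 29 genes (56.9%), against 47.5% of all probe sets. Leaving out any 1 of the 5 arrays of site 2 other than that cortex array ended the calls of Gria3, Grik2, Gabra3 and Gabrg1 there, and leaving out the first or second retina array or the first cortex array ended that of Gabbr1. Across the sites, 10 genes were called higher at both and 10 lower at both, none was called in opposite directions, and 45 of the 51 had the same sign at both. The matching shares over all probe sets were not counted, so this agreement cannot be called particular to the receptor genes. The design text describes 1 pool of RNA per tissue for the series, and if the site 2 arrays had those pools too, this agreement is between 2 measurements of the same RNA. In whole tissue, fewer cells of a type and less RNA per cell cannot be told apart.

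**Figure D1:**
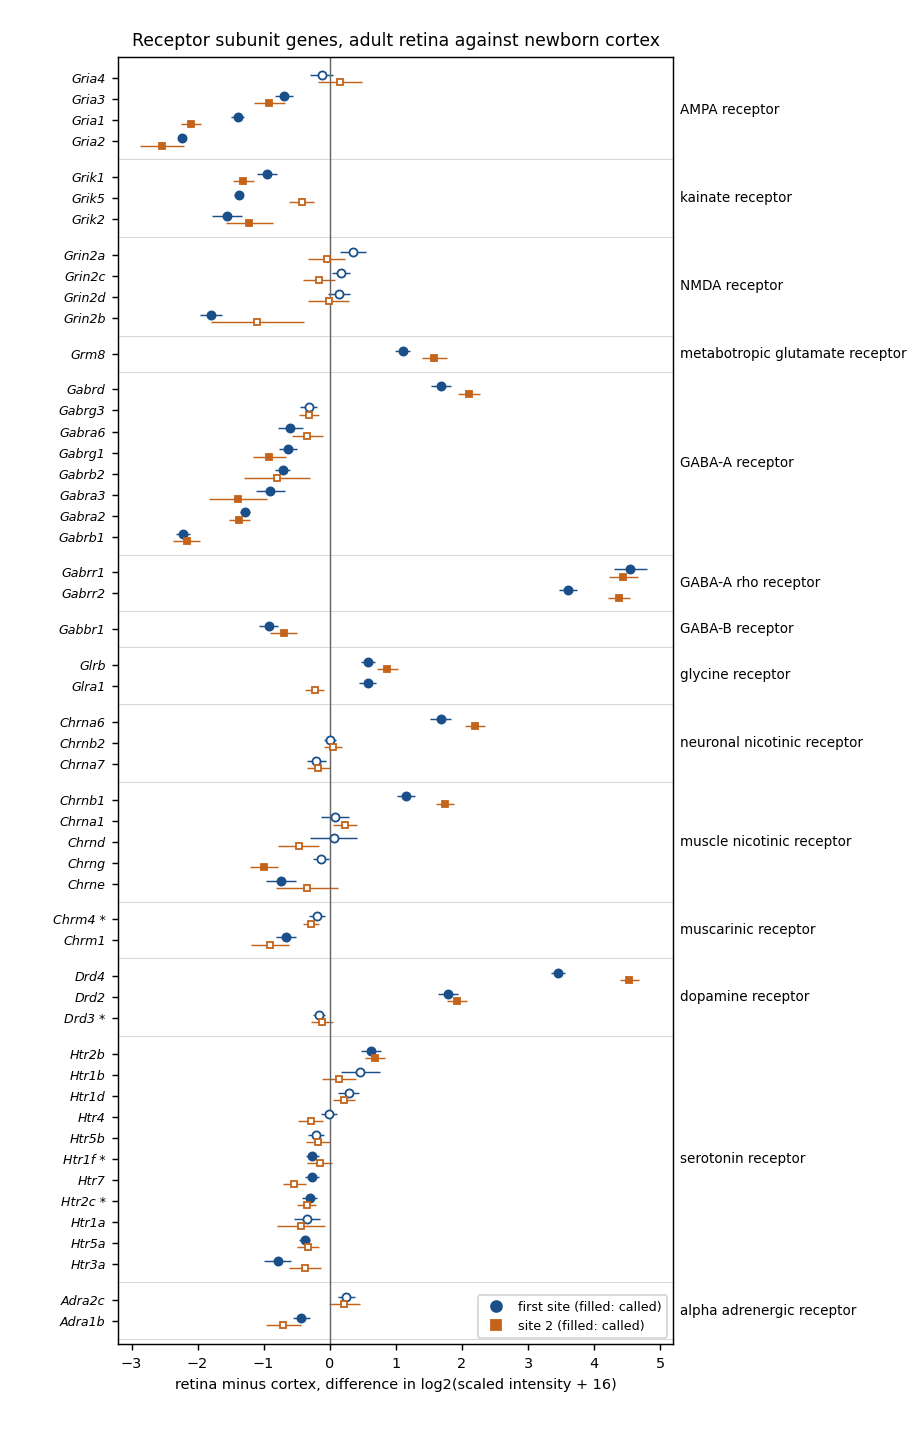
Retina over cortex difference of each of the 51 receptor genes, on the log2(scaled intensity + 16) scale (horizontal axis), grouped by receptor class (vertical axis). Circles are the first site (5 arrays per tissue) and squares site 2 (3 arrays per tissue), filled symbols passed the test, bars are 1 SE, and a star marks the 4 genes that lay at or under the controls on every array. The rho, dopamine and Grm8 symbols lie to the right of 0, apart from Drd3, and those of the AMPA and kainate classes lie to the left, apart from Gria4 at site 2.

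On the log2(scaled intensity + 16) scale, Gabrr1, Gabrr2, Drd4 and Drd2 had the widest first-site differences toward retina. At site 2 Chrna6 (2.20) and Gabrd lay above Drd2 (1.93) on that scale, and Gabrr2 and Gabrd have only a bound. The 250 bases before the start of each of these genes are shown because they are the stretches in which promoter motifs are usually looked for. They are RefSeq sequences of mouse build GRCm38.p6, all on the plus strand: Gabrr1 at chr4:33132306-33132555, Gabrr2 at chr4:33062862-33063111, Drd4 at chr7:141291768-141292017 and Drd2 at chr9:49340153-49340402. Capitals mark matches on either strand to TAATCC, the core bound by OTX and CRX homeodomain factors, of which CRX acts in photoreceptors, and to GGGCGG, the GC box bound by Sp factors.
Gabrr1: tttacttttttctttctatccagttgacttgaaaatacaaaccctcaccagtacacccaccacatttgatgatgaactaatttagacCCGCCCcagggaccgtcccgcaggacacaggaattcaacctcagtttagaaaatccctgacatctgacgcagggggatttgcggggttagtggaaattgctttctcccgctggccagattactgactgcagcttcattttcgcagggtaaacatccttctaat
Gabrr2: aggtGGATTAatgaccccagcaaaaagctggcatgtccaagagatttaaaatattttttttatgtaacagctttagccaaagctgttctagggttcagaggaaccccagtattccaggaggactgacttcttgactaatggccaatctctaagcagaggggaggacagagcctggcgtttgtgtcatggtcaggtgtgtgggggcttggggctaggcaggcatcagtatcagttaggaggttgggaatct
Drd4: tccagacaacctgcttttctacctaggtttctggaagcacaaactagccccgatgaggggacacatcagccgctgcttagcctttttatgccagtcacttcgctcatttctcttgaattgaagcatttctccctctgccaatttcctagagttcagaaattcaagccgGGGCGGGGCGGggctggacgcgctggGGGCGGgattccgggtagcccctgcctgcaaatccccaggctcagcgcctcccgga
Drd2: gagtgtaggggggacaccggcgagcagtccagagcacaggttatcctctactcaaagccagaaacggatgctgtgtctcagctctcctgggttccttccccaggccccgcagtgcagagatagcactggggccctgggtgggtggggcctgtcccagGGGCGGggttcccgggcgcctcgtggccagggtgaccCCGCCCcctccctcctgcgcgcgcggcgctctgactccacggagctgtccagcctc

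The Gabrr2 stretch held 1 match to TAATCC and none to GGGCGG, and the Gabrr1 stretch held 1 match to GGGCGG. The Drd4 stretch held 3 matches to GGGCGG, of which 2 overlap, and the Drd2 stretch held 2. The motif TAATCC was in the promoter stretch of 7.21% of the 27025 genes in the table and of 4 of the 38 receptor genes with a stretch (10.5%). By call at the first site, it was in 1 of 8 genes higher in retina, 2 of 16 lower and 1 of 14 called in neither direction. The motif GGGCGG was in 35.4% of all genes, in 6 of 8 receptor genes higher in retina, in 5 of 16 lower and in 6 of 14 called in neither direction. These are counts of letters in a window and no test was run on them.

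**Figure D2:**
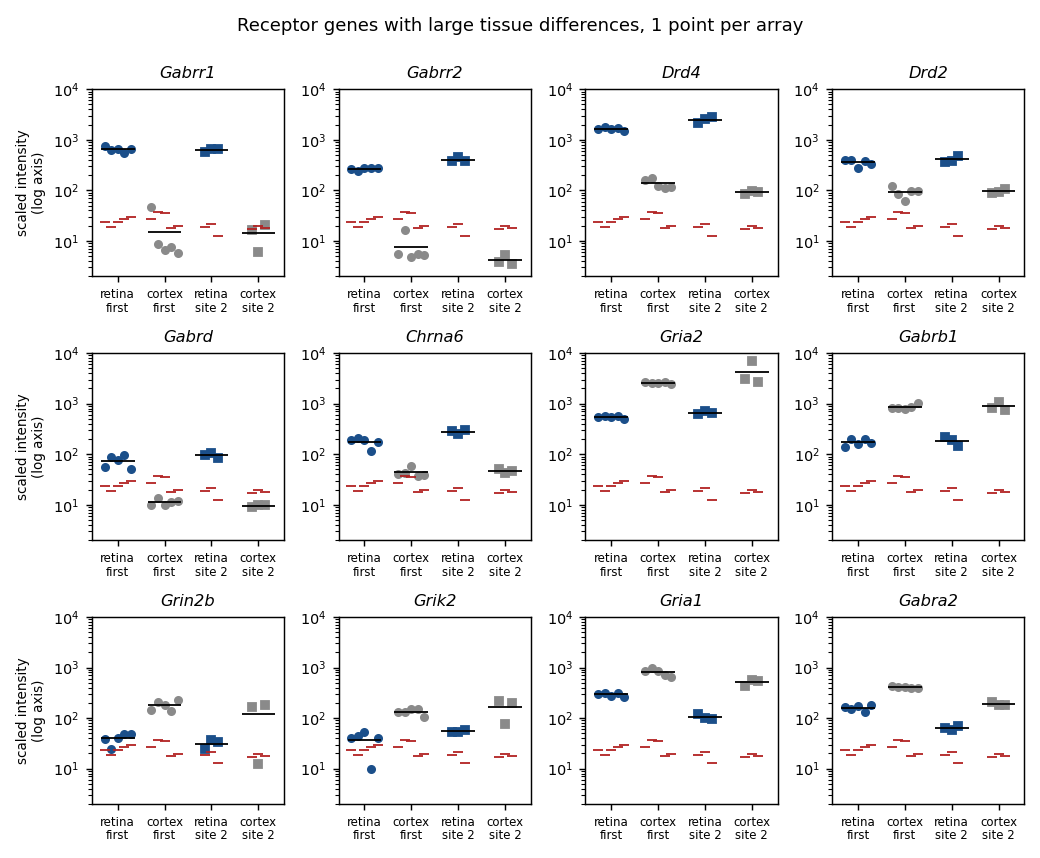
Scaled intensity on each of the 16 arrays (vertical axis, log scale, array median 100) for 12 receptor genes with wide differences, with retina left of cortex at each site. Points are arrays, the black line is the group mean, and the red dashes are the highest control of each array. Gabrr2 and Gabrd lie at or under the controls on every cortex array, and Grin2b of the second cortex array of site 2 lies far below the other cortex arrays.

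Among the AMPA receptor subunits, which carry fast excitation, 3 of 4 were lower in retina both at the first site and at site 2. The class had a median difference of -1.04 at the first site and -1.51 at site 2. Gria2 encodes the subunit whose edited form keeps calcium out of the channel. It read 542, 560.4, 537, 561 and 491 on the retina arrays of the first site, against 2622, 2596, 2549, 2705 and 2443 on the cortex arrays. At site 2 Gria2 read 618, 699.6 and 652 in retina, against 3098, 6904 and 2727 in cortex. The tissues did not overlap at either site, and the difference was -2.23 ± 0.05 (SE, limma adjusted p = 2.15e-12) at the first site and -2.54 ± 0.34 (adjusted p = 0.0012) at site 2. The probe set is of a kind that can match several transcripts, and another probe set of Gria2 gave -1.98 ± 0.12 at the first site.

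Gria1, another main AMPA subunit of forebrain neurons, read 306, 313, 278, 317 and 259.5 on the retina arrays of the first site, against 861, 958, 849, 724 and 636 in cortex. At site 2 Gria1 read 119, 101 and 97.2 in retina, against 424, 557 and 538 in cortex. Every retina array was below every cortex array, with a difference of -1.39 ± 0.10 (limma adjusted p = 8.88e-08) at the first site and -2.10 ± 0.15 (adjusted p = 7.5e-05) at site 2. A second Gria1 probe set gave -1.04 ± 0.12 at the first site. At site 2 it gave -0.69 ± 0.55 (adjusted p = 0.4), and its tissues overlapped there. Gria3 was dimmer, with 49.9, 52.2, 38.8, 52.8 and 31.9 in retina of the first site, against 85.9, 66.5, 75.5, 87.9 and 95.9 in cortex. At site 2 Gria3 read 44.4, 45.8 and 45.6 in retina, against 128, 67.5 and 112 in cortex. Its arrays did not overlap either, with differences of -0.69 ± 0.14 and -0.92 ± 0.23 at the first site and site 2. Gria4 lay close to the controls and was called at neither site, and its difference at the first site had a 95% interval of -0.50 to 0.26.

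All 3 kainate receptor subunits measured were lower in retina at the first site and 2 of them at site 2. Without the second cortex array of site 2 all 3 were lower there too. Grik2 encodes a subunit that forms channels on its own. It read 39.9, 44.0, 52.0, 9.81 and 40.8 in retina of the first site, against 130.2, 133, 149, 154 and 103 in cortex, and the fourth retina array was below its control level. At site 2 Grik2 read 54.1, 53.7 and 57.2 in retina, against 215, 74.7 and 200.2 in cortex. The tissues were separate at both sites, with differences of -1.55 ± 0.23 (limma adjusted p = 7.49e-05) and -1.22 ± 0.35 (adjusted p = 0.0352), and the probe set can match several transcripts.

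Grik5 encodes a high-affinity subunit that needs a partner subunit to form a channel. It read 184, 204, 178, 205 and 169 in retina of the first site, against 568, 515, 466, 514 and 509 in cortex. At site 2 Grik5 read 350.2, 402 and 467 in retina, against 641, 425 and 603 in cortex. The tissues were well apart at the first site (-1.38 ± 0.07, limma adjusted p = 3.68e-09) and overlapped at site 2 (-0.43 ± 0.19, adjusted p = 0.129). Without the second cortex array of site 2 the difference there was -0.60 ± 0.13 (adjusted p = 0.00578). A second Grik5 probe set had the opposite sign at the first site (0.48 ± 0.20, adjusted p = 0.0628). The first-site call of Grik5 was kept under all 20 alternatives of processing, with differences from -1.45 to -0.45. Grik1 read 38.8, 39.7, 33.7, 32.9 and 31.1 in retina of the first site, against 95.7, 57.8, 91.6, 108 and 70.4 in cortex. At site 2 Grik1 read 34.1, 32.0 and 38.8 in retina, against 108, 111 and 111 in cortex. It was lower in retina on every array, with differences of -0.95 ± 0.15 and -1.31 ± 0.16 at the first site and site 2 (limma adjusted p = 0.000125 and 0.000772).

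NMDA receptors pair the obligatory Grin1 subunit with Grin2 subunits, of which Grin2b is the main form in the immature forebrain. Of the 4 measured, only Grin2b was called at the first site and none at site 2. Grin2b read 38.3, 24.8, 41.1, 47.4 and 48.6 in retina of the first site, against 146, 207, 179.5, 137 and 225 in cortex. At site 2 Grin2b read 24.0, 36.3 and 33.0 in retina, against 168, 12.3 and 177 in cortex. At the first site every retina array was below every cortex array (-1.79 ± 0.16, limma adjusted p = 7.87e-07). At site 2 the difference was -1.10 ± 0.70 (adjusted p = 0.29), and the second cortex array read far below the other two. Without that array it was -2.01 ± 0.18 (adjusted p = 7.86e-05). Grin2a, the subunit that gains ground as the forebrain matures, was above the controls on 2 of 5 retina arrays and on none of 5 cortex arrays of the first site and was not called. Grin2c and Grin2d were above them on all arrays, and their first-site differences had 95% intervals of -0.12 to 0.45 and -0.21 to 0.49.

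Together, 7 of the 11 ionotropic glutamate receptor genes were lower in retina at the first site, 5 were lower at site 2, and none was higher at either. Without the second cortex array of site 2, 3 AMPA, 3 kainate and 1 NMDA receptor genes were lower there. Of 13 measured partners of these receptors, such as anchoring and auxiliary proteins, 3 were higher and 9 lower at the first site, with 3 higher and 5 lower at site 2. Beside both sets of counts, 22.3% of all probe sets were higher and 25.6% lower at the first site, and 16.7% and 15.8% at site 2. Cnih2, an auxiliary subunit of AMPA receptors, differed by -2.43 ± 0.09 and Camk2b, a subunit of the synaptic calcium-dependent kinase, by -1.43 ± 0.08 at the first site. Nsf, an ATPase of membrane fusion that also binds AMPA receptors, differed the other way, by 1.85 ± 0.08. The projection neuron list summed to 638 to 950.1 scaled units in retina and 7375 to 8509 in cortex of the first site, and its part in these differences was not tested.

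Grm8, the only metabotropic glutamate receptor among these genes, encodes a receptor that damps transmitter release. It read 241, 179, 252, 199 and 243 in retina of the first site, against 92.9, 79.7, 109, 99.7 and 92.3 in cortex. At site 2 Grm8 read 340.4, 301 and 338 in retina, against 111, 70.1 and 119 in cortex. Unlike the glutamate-gated channels called, it was higher in retina on every array, by 1.10 ± 0.11 (limma adjusted p = 2.19e-06) at the first site and 1.58 ± 0.20 (adjusted p = 0.000876) at site 2. The metabotropic receptor of ON bipolar cells, Grm6, is not among the genes analysed here. Of 8 measured genes of the cascade that Grm6 drives, 5 were higher in retina and 1 was lower at the first site, and 5 were higher at site 2. Over all probe sets, 22.3% were higher and 25.6% lower at the first site, and 16.7% were higher at site 2. The widest of these differences were those of the G protein subunits Gnb3 (4.40 ± 0.13) and Gnb5 (3.13 ± 0.07) and of Pcp2 (2.70 ± 0.18), a modulator of G protein signalling in bipolar cells. Rgs11 (1.30 ± 0.12) and Trpm1 (0.53 ± 0.17) were higher by less at the first site, and Gnao1 was lower (-0.46 ± 0.09). Which cells these differences came from was not tested.

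The rho subunits form GABA-gated chloride channels that close slowly and are best known from retinal bipolar cells. Gabrr1 read 749, 630.4, 664, 542 and 650.1 in retina of the first site, against 46.8, 8.59, 6.55, 7.55 and 5.64 in cortex. At site 2 Gabrr1 read 581, 667 and 645 in retina, against 16.2, 6.13 and 20.9 in cortex. The cortex values lay at or under the controls on all but 1 array per site, and the differences were 4.55 ± 0.25 (limma adjusted p = 5.12e-09) and 4.44 ± 0.22 (adjusted p = 1.41e-05). Their size depends on the constant added before the logarithm: with 50 and with 1 in place of 16 it was 3.45 and 5.82 at the first site, and 3.41 and 5.50 at site 2. Gabrr2 read 264, 242, 279.6, 279 and 270.4 in retina of the first site, against 5.49, 16.5, 4.74, 5.57 and 5.31 in cortex. At site 2 Gabrr2 read 386, 446 and 384 in retina, against 3.90, 5.26 and 3.54 in cortex. All cortex arrays were at or under the controls, so Gabrr2 was at least 10.2-fold higher in retina at the first site (adjusted p = 1.49e-10) and at least 22.3-fold higher at site 2 (adjusted p = 4.63e-06). The bipolar marker list was also higher in retina, summing to 1952 to 2026 scaled units in retina and 352 to 456 in cortex of the first site, with 4 of 4 genes higher. At site 2, 3 of the 4 were higher, and Car8 was not called (0.47 ± 0.19, limma adjusted p = 0.103). Over all probe sets, 22.3% were higher at the first site and 16.7% at site 2. Most markers of the other retinal cell types were also higher in retina, and the part of bipolar cells was not tested.

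The other GABA-A subunits split. Gabrd was higher in retina at both sites, whereas 6 of the 8 were lower at the first site, 4 of the 8 were lower at site 2, and Gabrg3 was called at neither. Without the second cortex array of site 2, 5 of the 8 were lower there. The share of all probe sets called lower was 25.6% at the first site and 15.8% at site 2. Gabrd, the delta subunit, belongs to receptors outside the synapse that respond to low, lasting GABA. It read 56.9, 86.8, 75.4, 97.6 and 51.4 in retina of the first site, against 10.1, 13.9, 10.1, 11.3 and 12.0 in cortex. At site 2 Gabrd read 98.0, 103 and 82.3 in retina, against 9.18, 9.86 and 9.77 in cortex. No cortex array was above the controls, so it was at least 2.75-fold higher in retina at the first site (limma adjusted p = 6.76e-07) and at least 5.19-fold higher at site 2 (adjusted p = 9.09e-05).

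Gabrb1, a beta subunit, read 136, 199, 161, 201 and 168 in retina of the first site, against 801, 834, 789.7, 866 and 1017 in cortex. At site 2 Gabrb1 read 218, 192 and 142 in retina, against 817, 1089 and 744 in cortex. The tissues were far apart at both sites, with differences of -2.22 ± 0.10 (limma adjusted p = 9.67e-10) and -2.17 ± 0.20 (adjusted p = 0.00023). Gabra2, an alpha subunit common in the developing forebrain, read 164, 148, 170.3, 133 and 178 in retina of the first site, against 424, 408, 418, 393 and 389 in cortex. At site 2 Gabra2 read 62.4, 57.7 and 69.9 in retina, against 208, 179 and 179.7 in cortex. Every retina array was below every cortex array of the same site, with differences of -1.28 ± 0.08 and -1.37 ± 0.15 at the first site and site 2. The remaining alpha, beta and gamma subunits called lower at the first site were Gabra3 (-0.90), Gabrb2 (-0.71), Gabrg1 (-0.63) and Gabra6 (-0.60), the alpha subunit of cerebellar granule cells. The Gabra6 probe set can match several transcripts, its tissues overlapped, and its call was lost without the first or the fifth retina array and with the mean of both its probe sets (adjusted p up to 0.351). Gabrg3 differed by -0.32 ± 0.13 at the first site, with a 95% interval of -0.61 to -0.03.

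Gabbr1 encodes the ligand-binding subunit of the metabotropic GABA-B receptor. It read 988, 1155, 1035, 1258 and 751 in retina of the first site, against 2181, 1960.4, 1558, 1741 and 2466 in cortex. At site 2 Gabbr1 read 1315, 1465 and 1892 in retina, against 2449.8, 2983 and 2164 in cortex. It was lower in retina without overlap at both sites, with differences of -0.92 ± 0.14 (limma adjusted p = 0.000108) and -0.70 ± 0.20 (adjusted p = 0.0322).

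Both glycine receptor subunits measured were higher in retina at the first site. Glrb, the beta subunit that ties the receptor to its scaffold, read 1018, 734, 950.5, 789.5 and 897 in retina of the first site, against 643, 519, 598, 663 and 494 in cortex. At site 2 Glrb read 1198, 1252 and 1183 in retina, against 804, 529.9 and 655 in cortex. Retina was above cortex on every array, by 0.58 ± 0.10 (limma adjusted p = 0.000387) and 0.87 ± 0.16 (adjusted p = 0.00599). Glra1, the alpha subunit of the adult receptor, read 174, 209, 161, 194 and 162 in retina of the first site, against 100, 135, 123, 138 and 87.9 in cortex. At site 2 Glra1 read 104, 109 and 107 in retina, against 124, 130.1 and 131 in cortex. Its difference was 0.57 ± 0.13 (adjusted p = 0.00175) at the first site, while at site 2 the retina arrays all lay below the cortex arrays and the difference of -0.23 ± 0.14 did not pass the test (adjusted p = 0.256).

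Of 12 measured genes that act with inhibitory or cholinergic receptors or make and carry their transmitters, 6 were higher in retina at the first site and 2 were lower, with 5 higher and 1 lower at site 2. The shares over all probe sets were 22.3% higher and 25.6% lower at the first site, and 16.7% and 15.8% at site 2. Gad1, an enzyme that makes GABA, differed by 1.21 ± 0.05 at the first site and Nsf, which is also on this list, by 1.85 ± 0.08. Agrn, the organiser of acetylcholine receptor clusters at the muscle synapse, differed by -2.19 ± 0.07. The amacrine and horizontal cell markers summed to 5847 to 6226 scaled units in retina and 1702 to 1759 in cortex of the first site, with 5 of 7 higher and none lower, and the cortical interneuron markers to 3508 to 3646 in retina and 4584 to 5068 in cortex, with 1 of 8 higher and 6 lower. Their part in the differences of GABA and glycine receptors was not tested.

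Among the nicotinic receptors of neurons, 1 of 3 was called, at both sites. Chrna6, an alpha subunit known from dopamine neurons and retinal ganglion cells, read 192, 212, 191, 114 and 172 in retina of the first site, against 40.1, 43.4, 57.3, 37.0 and 39.6 in cortex. At site 2 Chrna6 read 282, 249 and 296 in retina, against 52.0, 43.2 and 47.4 in cortex. All retina arrays were above all cortex arrays of the same site, by 1.68 ± 0.16 (limma adjusted p = 9.87e-07) and 2.20 ± 0.15 (adjusted p = 5.94e-05). Retinal ganglion cell markers were higher in retina in 6 of 6 cases at the first site, summing to 3677 to 4079.5 scaled units in retina and 933 to 1140.0 in cortex, and their part was not tested. Chrna7, which forms channels on its own, was above the controls everywhere and averaged 121 ± 13.1 in retina and 144 ± 34.0 in cortex of the first site (SD, n = 5 each). Its difference there had a 95% interval of -0.53 to 0.12. Chrnb2, the common beta subunit of brain receptors, lay at or near the controls in both tissues.

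The array also held the 5 subunits of the muscle acetylcholine receptor. Chrnb1, the muscle beta subunit, averaged 37.1 ± 10.1 in retina and 7.58 ± 1.76 in cortex of the first site (SD, n = 5 each). It was above the controls on 4 of 5 retina arrays and on no cortex array, which makes it at least 1.37-fold higher in retina (limma adjusted p = 1.24e-05), and at least 3.25-fold at site 2. Chrne, the subunit of the adult muscle receptor, read 74.9, 70.5, 83.5, 75.9 and 95.1 in retina of the first site, against 86.6, 232, 116, 113 and 221 in cortex. At site 2 Chrne read 66.9, 62.3 and 158 in retina, against 169, 52.4 and 164 in cortex. Its tissues overlapped at both sites, its difference was -0.74 ± 0.23 (adjusted p = 0.0155) at the first site, and a second Chrne probe set was called in the opposite direction there (0.89 ± 0.25, adjusted p = 0.00866). With the mean of all its probe sets Chrne differed by 0.05 (adjusted p = 0.843), so no direction can be given for it.

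Chrng, the subunit of the fetal muscle receptor, read 34.8, 49.1, 48.8, 50.6 and 49.1 in retina of the first site, against 53.8, 65.3, 44.1, 47.1 and 52.1 in cortex. At site 2 Chrng read 12.5, 12.0 and 8.62 in retina, where no array was above the controls, against 47.5, 45.6 and 24.1 in cortex. The tissues overlapped at the first site (-0.13 ± 0.13, limma adjusted p = 0.439) and were separate at site 2, where Chrng was at least 2.17-fold lower in retina (adjusted p = 0.00937). A second Chrng probe set leaned the other way at both sites (0.45 ± 0.27 and 0.51 ± 0.19, adjusted p = 0.206 and 0.0783). Chrna1 and Chrnd lay around the controls and were called at neither site. Of 8 skeletal muscle markers none was higher and 1 was lower in retina at the first site, and Myh3, Myh8 and Tnnt3 were at or under the controls on every array there. That list summed to 322 to 398 scaled units in retina and 374 to 516 in cortex.

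Of the muscarinic receptors, Chrm1, which couples to calcium release, read 37.3, 50.8, 31.4, 58.7 and 58.3 in retina of the first site, against 75.8, 91.7, 72.6, 87.7 and 86.7 in cortex. At site 2 Chrm1 read 42.3, 48.4 and 50.2 in retina, against 136, 58.7 and 128 in cortex. Retina was below cortex without overlap at both sites, and the difference passed the test at the first (-0.66 ± 0.15, limma adjusted p = 0.00204) and just missed it at site 2 (-0.91 ± 0.29, adjusted p = 0.0506). Without the second cortex array of site 2 it was -1.24 ± 0.16 (adjusted p = 0.000464). Chrm4, an inhibitory muscarinic receptor, was at or under the controls on every array of the series. Without the second cortex array of site 2 it was called lower in retina there (limma adjusted p = 0.0227), and no size is given.

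Dopamine receptors were the class with the widest differences toward retina after the rho subunits, with a median of 1.79 at the first site and 1.93 at site 2. Drd4, an inhibitory receptor of the D2 family that is known from photoreceptors, read 1610.3, 1766, 1603, 1687 and 1509 in retina of the first site, against 157, 174, 124, 110.5 and 117 in cortex. At site 2 Drd4 read 2102, 2588 and 2771 in retina, against 83.2, 97.5 and 94.0 in cortex. The tissues were far apart at both sites, with differences of 3.45 ± 0.11 (limma adjusted p = 1.78e-11) and 4.53 ± 0.14 (adjusted p = 2.18e-06). Drd2, which also serves as the autoreceptor of dopamine cells, read 392, 405, 272, 377 and 333 in retina of the first site, against 122, 86.4, 62.3, 96.8 and 95.2 in cortex. At site 2 Drd2 read 364, 377 and 481 in retina, against 89.4, 90.7 and 104 in cortex. It was higher in retina on every array, by 1.79 ± 0.15 (adjusted p = 2.65e-07) and 1.93 ± 0.15 (adjusted p = 0.000111). Drd3 was at or under the controls on every array. The rod and cone markers were also higher in retina, and so were most markers of bipolar, amacrine and horizontal, ganglion and Mueller cells. From the first site to site 2 the median difference of the rod list went from 7.97 to 7.61. That of the cone list went from 4.28 to 5.13, and the Drd4 difference from 3.45 to 4.53. No measured rod or cone marker passed the test of this change between sites (lowest limma adjusted p = 0.0584, Opn1mw). Whether the Drd4 change is related to either list was not tested. The part of these cells was not tested.

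Serotonin receptors were the largest class, with 11 genes, and their differences were small. At the first site 1 was higher and 5 were lower in retina, against 22.3% and 25.6% of all probe sets. At site 2 only Htr2b was called, and the class median was -0.26 at the first site and -0.29 at site 2. Without the second cortex array of site 2, 3 were also called lower there. They were Htr5a (-0.43 ± 0.13, limma adjusted p = 0.0344), Htr7 (-0.60 ± 0.17, adjusted p = 0.0243) and Htr2c, which lay at or under the controls. Htr3a, the serotonin-gated channel, read 78.5, 38.2, 46.9, 82.6 and 62.6 in retina of the first site, against 141, 165, 92.8, 93.6 and 98.3 in cortex. At site 2 Htr3a read 66.4, 124 and 64.7 in retina, against 108, 117 and 106 in cortex. The first-site arrays were separate (-0.79 ± 0.20, limma adjusted p = 0.00492) and those of site 2 overlapped (-0.37 ± 0.24, adjusted p = 0.299). Htr5a, a receptor that lowers cyclic AMP, read 147, 158, 154, 163 and 183 in retina of the first site, against 216, 231, 232, 194 and 196 in cortex. At site 2 Htr5a read 101, 90.9 and 105 in retina, against 136, 108 and 142 in cortex. Retina was below cortex without overlap at both sites, with a difference of -0.38 ± 0.08 (adjusted p = 0.00203) at the first and, not past the test, -0.32 ± 0.16 (adjusted p = 0.185).

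Htr7, a receptor that raises cyclic AMP, read 94.3, 113, 121, 89.5 and 111 in retina of the first site, against 138, 135, 143, 119.8 and 117 in cortex. At site 2 Htr7 read 79.5, 69.5 and 70.6 in retina, against 102, 103 and 138 in cortex. Its arrays overlapped at the first site, where the difference of -0.27 ± 0.10 was at the edge of the test (limma adjusted p = 0.0445) and was lost without any 1 of 6 of the 10 arrays, and did not overlap at site 2 (-0.54 ± 0.18, adjusted p = 0.0533). Htr2b, which couples to calcium release, averaged 26.0 ± 3.51 in retina and 11.7 ± 5.79 in cortex of the first site (SD, n = 5 each), and the tissues did not overlap. It was above the controls on 4 of 5 retina arrays and on no cortex array, so no size is given for its first-site call (adjusted p = 0.00294), and it was at least 1.26-fold higher in retina at site 2. The remaining 2 genes called lower, Htr1f and Htr2c, were at or under the controls on every array, so no size is given for them, and Htr1f had an adjusted p that rounds to the threshold itself. Htr1a, Htr1b, Htr1d, Htr4 and Htr5b passed the test at neither site, with first-site differences between -0.34 and 0.46. A second Htr4 probe set was higher in retina at site 2 (0.83 ± 0.22, adjusted p = 0.0254) and not called at the first site (-0.05 ± 0.33).

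The alpha adrenergic receptors were Adra1b, which was dim and lower in retina at the first site (limma adjusted p = 0.0177) with overlap between the arrays, and Adra2c, an inhibitory receptor that was above the controls on every array. Adra1b was above the controls on none of 5 retina arrays and 2 of 5 cortex arrays of the first site, so no size is given. At site 2 Adra1b was not called (limma adjusted p = 0.0853), and without the second cortex array there it was called lower (adjusted p = 0.00341). Adra2c averaged 172 ± 11.4 in retina and 144 ± 28.5 in cortex of the first site (SD, n = 5 each), a difference whose 95% interval was -0.01 to 0.52. Among receptors of these and related transmitters outside the name rule, 4 were measured. P2rx4, a channel opened by ATP, was higher in retina at the first site (1.10 ± 0.19), Grid1, a relative of the glutamate-gated channels, was lower (-1.03 ± 0.08), and the other two were called at neither site.

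Of the 3 HtrA proteases caught by the name rule, Htra1, a secreted protease, was higher in retina, averaging 1005 ± 63.6 in retina and 331 ± 31.5 in cortex of the first site (SD, n = 5 each), with a difference of 1.56 ± 0.07 (limma adjusted p = 9.4e-10). The mitochondrial protease Htra2 differed by 0.03 ± 0.07 and Htra3 by -0.37 ± 0.17 at the first site, and neither passed the test at either site.

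The brightest probe set of a gene was not always borne out by the others. Of the 12 further probe sets of receptor genes, 4 were called in the same direction as the main one at the first site (Gria1, 2 of Gria2 and Grik2), 1 in the opposite direction (Chrne), and the rest were not called. For Grik5 the second probe set differed by 0.48 ± 0.20 (limma adjusted p = 0.0628), a sign opposite to that of the main one.

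A purpose of the study was to measure variation between sites, and the retina over cortex difference itself was tested between them. It differed for 6 of the 51 receptor genes, of which 3 had the more positive value at the first site and 3 at site 2, against 1.44% and 2.74% of all probe sets, or 11.8% of the receptor genes against 4.18% in either direction. With quantile normalization these counts were 1 and 2, and without scaling of the arrays both were 0. Drd4, whose per-array values are given above, had a wider difference at site 2, and the first-site difference minus that of site 2 was -1.08 ± 0.18 (limma adjusted p = 0.00206). Its level at the first site was lower in retina and higher in cortex than at site 2, and the cortex call was lost without the first cortex array of site 2. Grik5 was less separated at site 2, with a difference of differences of -0.95 ± 0.17 (adjusted p = 0.00492). On that probe set the retina level was lower at the first site and the cortex level was called between sites in neither direction, whereas on the second Grik5 probe set the retina level was higher at the first site.

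For Glra1 the difference of differences was 0.80 ± 0.19 (limma adjusted p = 0.0241), with the retina arrays of the first site above those of site 2. For Gria1 it was 0.70 ± 0.18 (adjusted p = 0.0358), and on the main probe set both tissues were higher at the first site, retina more so. Chrng (adjusted p = 0.0471) and Gabrr2 (adjusted p = 0.049) passed the test by little. The Gabrr2 cortex arrays and the Chrng retina arrays of site 2 were at or under the controls, so the size of either is not measured. Leaving out 1 array at a time ended the Glra1 call without the second or the third retina array of site 2, the Gria1 call for 9 of the 16 arrays and the Chrng and Gabrr2 calls for 13 of them each. The second probe sets of Grik5, Gria1 and Chrng gave differences of differences of 0.58 ± 0.29, -0.35 ± 0.48 and -0.06 ± 0.41, none past the test and each with the opposite sign.

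**Figure D3:**
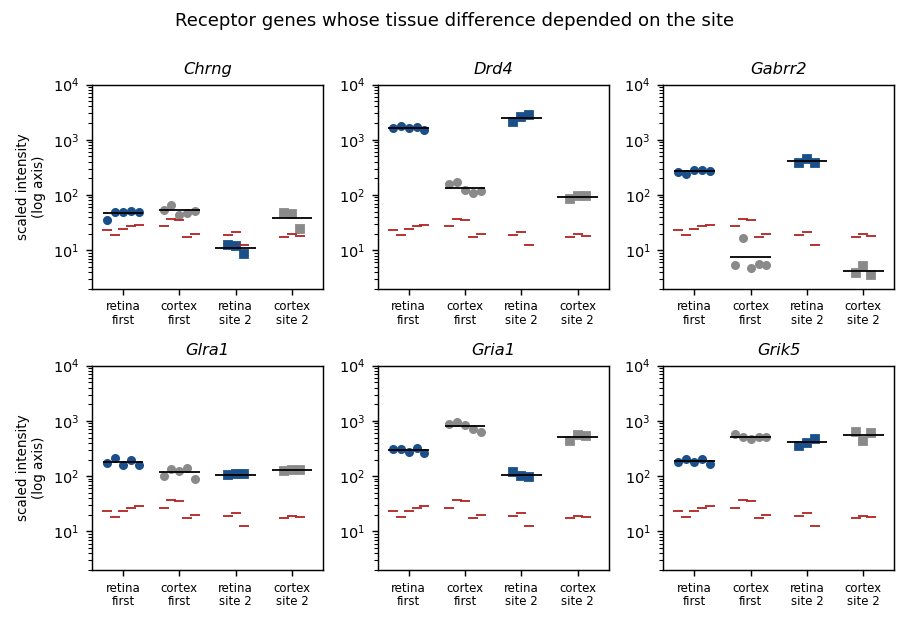
Scaled intensity on each of the 16 arrays (vertical axis, log scale, array median 100) for the 6 receptor genes whose retina over cortex difference depended on the site. Points are arrays, black lines group means and red dashes the highest control of each array. Glra1 in retina lies above cortex at the first site and below it at site 2, and Chrng in retina lies at or under the controls at site 2 only.

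Within a tissue, the design text describes 1 pool, and the site 2 labels do not repeat it. In retina, 7 receptor genes were higher and 9 lower at the first site than at site 2, against 13.8% and 24.2% of all probe sets (31.4% of the receptor genes in either direction, against 38.0%). With quantile normalization these counts were 7 and 5, with a replicate block 3 and 2, and without scaling of the arrays 2 and 0 (limma, 5 and 2 at an unadjusted p under 0.05). In either tissue the replicate block compared the sites at the first replicate of each, not their means, so its counts are of another comparison. On the main probe sets, Gria1 (1.35 ± 0.13) and Gabra2 (1.13 ± 0.10) were higher at the first site, and Grik5 (-1.04 ± 0.12) was lower (limma adjusted p = 1.19e-06, 7.03e-07 and 1.25e-05). The second Grik5 probe set was called the opposite way, higher at the first site (0.62 ± 0.21, adjusted p = 0.028), and with the mean of both probe sets the Grik5 call was lost (-0.21, adjusted p = 0.153). The second Gria1 probe set differed by -0.11 ± 0.34 (adjusted p = 0.822). Chrng was at least 2.68-fold higher at the first site. In cortex, 5 were higher and 4 lower, against 7.49% and 11.9% of all probe sets (17.6% of the receptor genes in either direction, against 19.4%). Without scaling limma called 0 and 0 (1 and 4 at an unadjusted p under 0.05), with a replicate block the counts were 1 and 1, and the count lower was 1 without the first cortex array of site 2 and 2 without the third, or without the first, the second or the fourth of the first site. Gabra2 (1.05 ± 0.10, adjusted p = 6.74e-06) had the widest difference. Gabra2 and Gabrg3 were higher at the first site in both tissues, and the tissue difference of neither passed the test between sites (-0.21 to 0.39 and -0.44 to 0.42, 95% intervals).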

How the data were processed

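Per the labels, biotinylated cRNA was made from about 10 micrograms of total RNA. The deposited values are linear intensities, 1 per probe set and array, already summarised by the authors. How they summarised, background-corrected or scaled them is not stated in these sources. Array medians ran from 45.65 to 214.9, so each array was scaled to a median of 100 before 16 was added and log2 taken. Gene symbols of the platform annotation were updated through Entrez identifiers to RefSeq of build GRCm38.p6, in which all 54 genes were found. The fit used limma 3.58.1 in R 4.3.3 (lmFit and trended eBayes), with two-sided tests and Benjamini-Hochberg adjustment over 12422 probe sets, after 66 controls were left out. Retina and cortex were fitted per site, and comparisons between sites came from 1 fit over 16 arrays. Every member is named, and array values are given for up to 3 called members per class with the largest first-site difference and for members that differed between sites. Genes of the partner and marker lists are named only where called, apart from muscle markers at control level. Alternatives were the pseudocount (1 or 50), adding 16 before centring, no scaling, quantile normalization, bright probe sets only, the mean of a gene's probe sets, no trend, a replicate block, 1 fit over all arrays and leaving out each array. The fit was tested on simulated data. The members and lists were chosen with earlier results of these data known. Protein sequences were not used here.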

Additional observations from a re-analysis of the deposited data

Results flagged for a closer look

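In the 102 first-site groups of 5 arrays tested for a single array far from the others, 6 stood out, where chance alone gives about 1 in 20. The Gabrr1 value of the first cortex array was 46.8 scaled units, with the other cortex arrays between 5.64 and 8.59, and it was the only cortex array of that site above its controls. The Gabrr2 value of the second cortex array was 16.5, above the other cortex arrays and under its control level of 37.0. The Chrnb1 value of the fifth cortex array was 4.56, below the others, and all of these were under the controls. The Grik2 value of the fourth retina array was 9.81, under its control level, with the others between 39.9 and 52.0. The Chrng value of the first retina array was 34.8, with the others between 48.8 and 50.6. The Grin2d value of the third cortex array was 104, with the others between 61.1 and 66.3.

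The retina over cortex difference was not the same at both sites, by a test of the difference itself, for 6 genes. As first site minus site 2 on the log2 scale, this was -1.08 for Drd4, -0.95 for Grik5, -0.77 for Gabrr2, 0.87 for Chrng, 0.80 for Glra1 and 0.70 for Gria1. The values of Gabrr2 and Chrng rest on groups at or under the controls and depend on the constant added, so they do not measure a size. Under the alternatives they ran from -1.17 to -0.51 and from 0.40 to 1.52. The Drd4 call was kept under 24 of 25 alternatives, the Grik5 call under 23 and the Glra1 call under 22. The Gria1 call was kept under 11 of 25, the Gabrr2 call under 7 of 25 and the Chrng call under 5 of 24.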

How the results depend on the processing

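Of 85 calls of single receptor genes in the 5 comparisons, 36 kept their direction and stayed past the threshold under every alternative, and over 1535 gene and alternative pairs the call was kept in 1312, lost in 222 and turned round in 1. That one was Chrne at the first site, which differed by 0.046 (limma adjusted p = 0.843) with the mean of all its probe sets. First-site calls kept under few alternatives were those of Htr1f (4 of 19), Htr2c (8 of 19) and Htr7 (10 of 19). The count of 11 genes higher at the first site stayed between 8 and 12. With only the probe sets above the median signal, which drops dim receptors, 8 genes were lower at the first site in place of 22, 5 at site 2 in place of 11, 4 were higher in retina at the first site than at site 2 in place of 7, and 1 was lower in cortex in place of 4. Without scaling of the arrays, 5 genes were higher and 3 lower at site 2, none differed in the tissue difference between sites (limma, 0 in place of 3 in each direction), 2 were higher and 0 lower between sites in retina, and 0 and 0 in cortex. At an unadjusted p under 0.05 these were 1 and 0 for the tissue difference, 5 and 2 in retina and 1 and 4 in cortex. The array medians differ, which that setting leaves in. Quantile normalization gave 1 gene with a more positive tissue difference at the first site in place of 3, and 5 lower in retina between sites in place of 9. A pseudocount of 50 and the mean of all probe sets each gave 1 in place of 3 for that tissue difference, and the cause was not tested. Replicate numbers did not pair the samples: deviations of same-numbered arrays correlated between -0.086 and 0.115. A replicate block gave 1 gene with a more positive tissue difference at the first site, 3 higher and 2 lower in retina between sites and 1 and 1 in cortex, and over all probe sets 566 higher and 945 lower in retina in place of 1715 and 3004, 63 and 35 in cortex in place of 930 and 1476, and 165 lower in the tissue difference in place of 340. Within a tissue, that block compared the sites as fitted at the first replicate of each, not as means of all arrays. Its counts there are of another comparison and do not measure how steady the calls are. The calls it ended there are among the losses counted above. Leaving out each array in turn gave 11 to 12 higher and 19 to 22 lower genes at the first site, 10 higher throughout and 6 to 20 lower at site 2, 0 to 3 and 2 to 3 for the tissue difference (0 without the second or the third retina array of site 2), 6 to 8 and 6 to 10 in retina between sites, and 4 to 6 and 1 to 6 in cortex (1 lower without the first cortex array of site 2, and 2 without the third, or without the first, the second or the fourth cortex array of the first site). Over all probe sets, without scaling, 2062 were lower at the first site in place of 3184, 347 higher and 434 lower at site 2 in place of 2071 and 1959, 21 and 13 in the tissue difference in place of 179 and 340, 177 and 113 in retina between sites and 27 and 52 in cortex. That setting moved the median tissue difference between sites over all probe sets by 0.11 on the log2 scale. Signal over background limits 13 of the 51 genes, which did not clear the controls on every array of either first-site tissue.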
